A study of Homo sapiens with 4 samples.

Results

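The Notch signalling genes described here are 10 genes: the ligands DLL1, DLL3, DLL4, JAG1 and JAG2, the ligand-like DLK1, the glycosyltransferase LFNG, the receptors NOTCH1 and NOTCH2, and the target HES1. They were chosen by symbol, and every probe set that the platform's annotation pairs with exactly 1 of these symbols was taken. This gave 28 of the 54675 probe sets on the array, from 1 for DLL4 to 6 for JAG1. Total RNA from NCI-H209 and Lu139, which are human small cell lung cancer cell lines, was hybridised to 4 Affymetrix arrays. Each line was electroporated with control siRNAs (siNTC) or with siRNAs for TTF-1 (siTTF-1), the lung and thyroid transcription factor encoded by NKX2-1. Each of the 4 groups is 1 array. The siRNA effect is therefore replicated only by having been measured in both lines. All groups were electroporated with an siRNA, and none is untreated. The time from electroporation to RNA extraction is not given in the sources used here.

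Notch signalling acts between touching cells. A Delta or Jagged ligand on a cell binds a Notch receptor on its neighbour. An ADAM protease and then the gamma-secretase complex cut the receptor. The freed intracellular part joins RBPJ and a Mastermind protein in the nucleus to switch on genes such as HES1 and HEY1. Their products repress neuronal and neuroendocrine differentiation. In small cell lung cancer the pathway is known to be held low in neuroendocrine cells. DLL3, an inhibitory ligand that stays mostly inside the cell, is typical of those cells and is a therapy target in this disease.

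RefSeq promoters (GRCh38.p14) were matched for 7 of the 10 genes, at 8 start sites. The 250 bases upstream of the start are shown for JAG2 and LFNG, the genes with the lowest limma adjusted p for siTTF-1 among the members, and for HES1, the textbook Notch target. Capitals mark the RBPJ core TGGGAA and the TTF-1 core CTCAAG, searched on both strands. The windows lie at chr14:105168777-105169026 on the minus strand (JAG2), at chr7:2512279-2512528 and chr7:2517613-2517862 on the plus strand (LFNG, 2 start sites) and at chr3:194135898-194136147 on the plus strand (HES1).
JAG2: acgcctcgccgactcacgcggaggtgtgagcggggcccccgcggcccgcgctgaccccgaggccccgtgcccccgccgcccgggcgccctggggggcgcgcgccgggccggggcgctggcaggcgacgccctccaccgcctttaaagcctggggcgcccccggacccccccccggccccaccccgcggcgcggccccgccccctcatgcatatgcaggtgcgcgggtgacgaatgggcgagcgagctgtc
LFNG start site 1: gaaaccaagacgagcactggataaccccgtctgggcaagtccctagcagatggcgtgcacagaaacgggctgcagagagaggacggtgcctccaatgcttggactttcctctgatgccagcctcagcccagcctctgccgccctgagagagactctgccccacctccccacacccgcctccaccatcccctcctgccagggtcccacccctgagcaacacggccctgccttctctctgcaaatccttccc
LFNG start site 2: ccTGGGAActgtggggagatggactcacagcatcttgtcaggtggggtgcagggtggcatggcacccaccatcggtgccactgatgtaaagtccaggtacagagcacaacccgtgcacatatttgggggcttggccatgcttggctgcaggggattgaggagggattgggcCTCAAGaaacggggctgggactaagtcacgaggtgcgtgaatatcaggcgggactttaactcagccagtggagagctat
HES1: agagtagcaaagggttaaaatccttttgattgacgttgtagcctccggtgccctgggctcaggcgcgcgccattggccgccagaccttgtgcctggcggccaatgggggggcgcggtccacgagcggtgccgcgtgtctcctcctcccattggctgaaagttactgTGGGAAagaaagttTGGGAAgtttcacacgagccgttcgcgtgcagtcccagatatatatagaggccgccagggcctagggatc
The HES1 window held the RBPJ core at 84 and 70 bases before the start. It also held 3 matches to the N-box CACNAG, the kind of site through which HES proteins repress, at 165, 132 and 58 bases before the start. The second LFNG start site had 1 RBPJ core (248 bases before the start), 1 CTCAAG (79 bases) and 1 N-box (53 bases). The JAG2 window and the first LFNG window had no match to these motifs, and the proneural E-box CAGCTG was in none of the 8 member windows. Among all 35116 promoter windows of this length, 20.8% held TGGGAA, 10.4% CTCAAG, 32.0% CACNAG and 14.0% CAGCTG. The motifs do not overlap one another in these windows, and a match is a description of the letters.

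The targeted gene was lower on both siTTF-1 arrays. NKX2-1 probe set 211024_s_at gave 596 with siNTC and 243 with siTTF-1 for NCI-H209, and 780 and 461 for Lu139. The 7 measured neuroendocrine markers, among them INSM1, CHGA and SYP, were above the expression limit on all 4 arrays. Their summed intensity was 29539 (siNTC) and 22191 (siTTF-1) for NCI-H209, and 18960 and 20189 for Lu139. In NCI-H209 DDC (5574.5 and 2197), GRP (8585 and 6009) and INSM1 (on 206502_s_at but not on 231558_at) were lower after siTTF-1. CHGA (3403 and 3814) and CHGB (1564 and 1815) were higher there. The leukocyte gene PTPRC (9.78 to 11.3) and the endothelial genes CDH5 and KDR (9.63 to 15.2) were below the limit on every array, while CD3E, CD14, PECAM1, VWF and the fibroblast gene COL1A1 were above it on all 4 (41.9 to 362). The summed lists were 437 to 538 for fibroblast markers, 134 to 185 for leukocyte markers, 180 to 243 for endothelial markers and 110 to 209.5 for non-neuroendocrine small cell markers, of which VIM alone passed the limit. Median intensities were 56.4 and 57.6 for NCI-H209, and 48.3 and 49.5 for Lu139, and the ratios of 3' to 5' control probe sets were 1.03 to 1.09 for ACTB and 0.912 to 0.936 for GAPDH. The expression limit was an intensity of 36.9, and fold changes below are differences of log2(intensity + 18.7), which understate the change of dim probe sets.

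After siTTF-1, JAG2, LFNG and DLK1 had higher intensities in both lines, on every probe set above the limit. JAG1 was higher in NCI-H209 and mostly lower in Lu139, and DLL3 was lower in NCI-H209 on its bright probe sets. DLL1 on its bright probe set differed little. DLK1 in NCI-H209 was the 1 member value past 1.5-fold, and no member was past 2-fold in either line, where 0.147% of all probe sets were that much higher and 0.653% lower in NCI-H209, and 0.00638% and 0.166% in Lu139. In limma, with the line as a block, 0 of the 23 tested member probe sets passed an adjusted p under 0.05, as did 0 of all 32768 probe sets tested (0.0% called). At an unadjusted p under 0.05, 5 member probe sets were higher and 0 lower, against a background of 5.88% higher and 9.29% lower. The 5 are those of JAG2 (2), LFNG (2) and DLK1 (1), and probe sets of a gene read the same transcripts, so they count 3 genes. In such bulk RNA, fewer cells with a transcript and less of it per cell cannot be told apart.

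**Figure D1:**
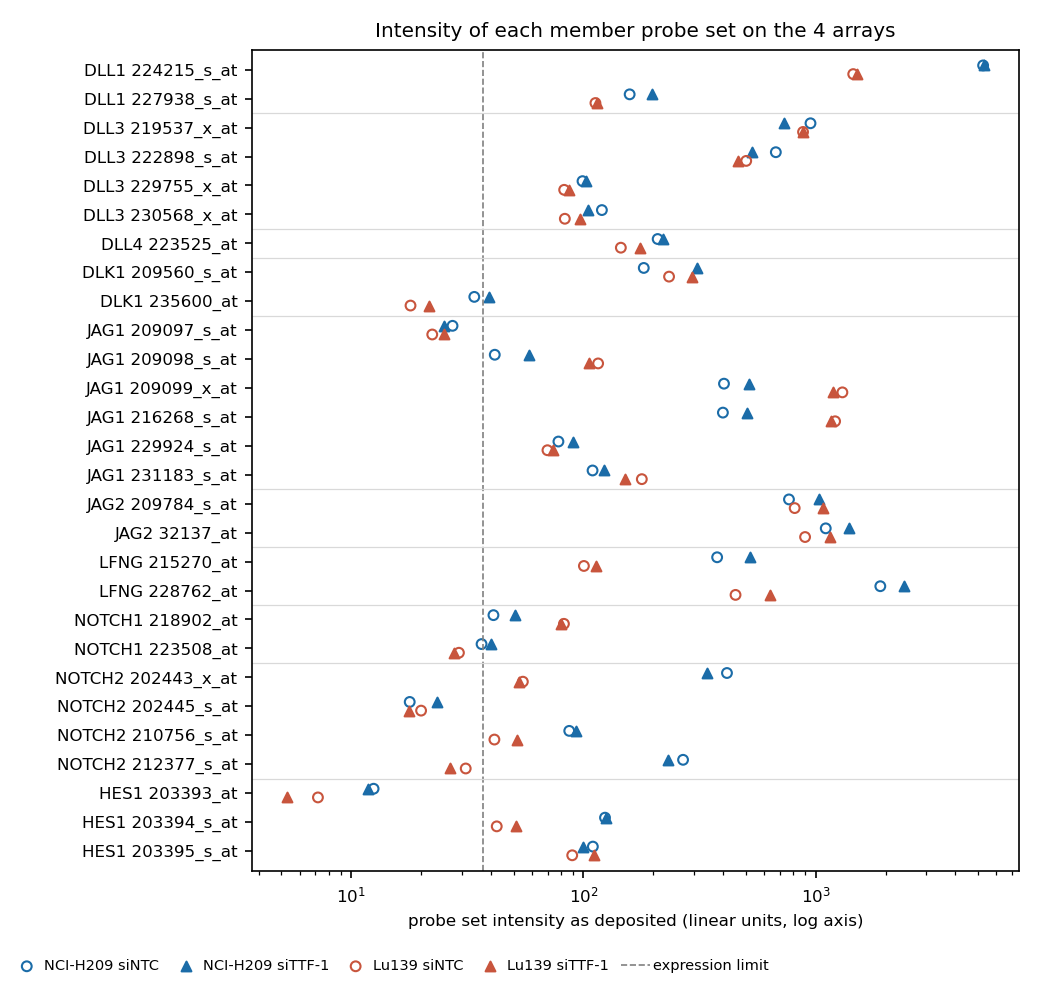
Intensity of each of the 28 member probe sets on the 4 arrays, as deposited, on a log axis; open circles are siNTC, filled triangles siTTF-1, blue NCI-H209 and red Lu139, and the dashed line is the expression limit of 36.9. JAG2 has its siTTF-1 points to the right of its control points in both lines, while LFNG and the brighter NOTCH2 probe sets separate the lines.

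Among the Delta ligands, DLL1 is a ligand that activates receptors on neighbouring cells. Its bright probe set, 224215_s_at, gave 5266 with siNTC and 5294 with siTTF-1 for NCI-H209, and 1452 and 1505 for Lu139. The arrays of a line thus lay close together (log2 fold changes 0.01 and 0.05). The dimmer 227938_s_at gave 158 and 197 for NCI-H209 (0.29), and 113 and 114 for Lu139 (0.01), so the DLL1 probe sets disagree for NCI-H209.

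DLL3 was read by 4 probe sets, and only the 2 bright ones were lower after siTTF-1 in NCI-H209 by more than 0.3 on the log2 scale. On 219537_x_at the NCI-H209 arrays gave 950 with siNTC and 729 with siTTF-1, 76.7% of control, and the Lu139 arrays gave 883 and 885. On 222898_s_at they gave 674 and 533, 79.1% of control, and 502 and 465. The siTTF-1 array of NCI-H209 was therefore lower than its control on both, and the Lu139 arrays differed little. The dim 229755_x_at read 99.1 and 102 for NCI-H209, and 82.6 and 86.7 for Lu139. The dim 230568_x_at read 120 and 105 for NCI-H209 (log2 fold change -0.17), and 83.1 and 96.6 for Lu139 (0.18). The mean log2 fold change of the bright probe sets was -0.19 (SD 0.27, n = 2 lines) and -0.22 (SD 0.15, n = 2 lines), with limma adjusted p of 0.494 and 0.40. INSM1, which encodes a neuroendocrine transcription factor, gave 9183 and 7383 for NCI-H209, and 4750 and 4742 for Lu139 on 206502_s_at. On its dimmer 231558_at it read 271 on both NCI-H209 arrays, and 80.1 and 79.4 for Lu139. The part of INSM1 in the DLL3 values was not tested. Probe sets ending in _x_at can hold probes that match other transcripts.

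DLL4, the Delta ligand best known from blood vessel sprouting, has 1 probe set. Its intensities were 208.7 and 219.6 for NCI-H209 (log2 fold change 0.07), and 145 and 175 for Lu139 (0.24). Both siTTF-1 arrays were above their control by small amounts.

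DLK1 resembles a Delta ligand but lacks the domain through which Delta ligands bind Notch, and it is made by neuroendocrine and endocrine cells. Its probe set 209560_s_at gave 182 with siNTC and 307 with siTTF-1 for NCI-H209, 169% of control, and 234 and 294 for Lu139, 126% of control. The siTTF-1 array was the higher in each line. The log2 fold changes were 0.70 and 0.31, a mean of 0.51 (SD 0.28, n = 2 lines; limma 95% interval 0.20 to 0.81, adjusted p = 0.182). DLK1 was the only member past 1.5-fold in NCI-H209, where 1.12% of the 33231 probe sets above the limit were at least 1.5-fold higher and 3.51% lower. As large a change, in either direction, had 2.68% of the NCI-H209 and 10.6% of the Lu139 probe sets above the limit. The other DLK1 probe set, 235600_at, was near or below the limit (33.9 and 39.4 in NCI-H209, 18.0 and 21.6 in Lu139).

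JAG2 had nearly the same change in both lines. On 209784_s_at the intensity was 768 and 1029.6 for NCI-H209, and 812.5 and 1072 for Lu139, 134% and 132% of control. On 32137_at it was 1106 and 1392 for NCI-H209, and 901 and 1156 for Lu139, 126% and 128% of control. Both siTTF-1 arrays lay above both control arrays on each probe set. The log2 fold changes were 0.41 and 0.39 on the first (mean 0.40, SD 0.02, n = 2 lines; limma 95% interval 0.17 to 0.64) and 0.33 and 0.35 on the second (mean 0.34, SD 0.02, n = 2 lines). The limma adjusted p was 0.169 and 0.201, and the smallest over all probe sets tested was 0.104.

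JAG1, the other Jagged ligand, had opposite directions in the lines on most probe sets. On 209099_x_at the intensity was 403 and 517 for NCI-H209, and 1304 and 1184 for Lu139. On 216268_s_at it was 399 and 508 for NCI-H209, and 1213 and 1160 for Lu139. The 5 JAG1 probe sets above the limit were all higher after siTTF-1 in NCI-H209 (log2 fold changes 0.14 to 0.35), and 4 of the 5 were lower in Lu139 (-0.06 to -0.22). The exception was 229924_s_at (0.06 in Lu139). Over both lines the limma adjusted p of these probe sets ran from 0.582 to 0.904, and a difference of the effect between lines could not be tested with 1 array per group.

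LFNG, the Lunatic fringe enzyme, adds a sugar to the receptor and tunes its response to Delta against Jagged ligands. On 228762_at the intensity was 1899.5 and 2395 for NCI-H209, and 452 and 637 for Lu139, 126% and 141% of control. On 215270_at it was 376.5 and 519 for NCI-H209, and 100.4 and 113 for Lu139. The siTTF-1 array was higher than its control in all 4 pairs, and the NCI-H209 arrays were all above the Lu139 arrays. The log2 fold changes were 0.33 and 0.48 on 228762_at (mean 0.40, SD 0.10, n = 2 lines; limma 95% interval 0.17 to 0.64, adjusted p = 0.17) and 0.44 and 0.15 on 215270_at (mean 0.30, SD 0.21, n = 2 lines, limma adjusted p = 0.318). In Lu139, 3.23% of the probe sets above the limit had a change as large as that of 228762_at.

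The receptors did not share a direction. NOTCH1 on 218902_at read 40.95 and 50.6 for NCI-H209, and 82.4 and 79.97 for Lu139, so its levels were close to the expression limit. NOTCH2 on 202443_x_at read 415 and 341.5 for NCI-H209, and 54.8 and 53.0 for Lu139, and on 212377_s_at 268.5 and 232 for NCI-H209, and 31.1 and 26.6 for Lu139. On 210756_s_at NOTCH2 read 86.9 and 92.9 for NCI-H209, and 41.3 and 52.0 for Lu139. The first pair of NOTCH2 probe sets was thus lower after siTTF-1 in NCI-H209 (log2 fold changes -0.27 and -0.20) and the third was not (0.08). The limma adjusted p for the NOTCH2 probe sets was 0.447 to 0.537.

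HES1, the repressor switched on by active Notch, had a mean change near 0. On 203394_s_at it read 124 and 125 for NCI-H209, and 42.3 and 51.2 for Lu139. On 203395_s_at it read 109.8 and 99.1 for NCI-H209, and 89.4 and 111 for Lu139. The siTTF-1 array was higher than its control in Lu139 on both probe sets (log2 fold changes 0.20 and 0.27), and in NCI-H209 the values were 0.01 and -0.13. The limma adjusted p was 0.643 and 0.808. The third HES1 probe set, 203393_at, was below the limit on all arrays (5.28 to 12.5).

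Counted at any size, 18 of 24 member probe sets were higher after siTTF-1 in NCI-H209 and 15 of 22 in Lu139, where 51.9% and 53.1% of all probe sets were. The 22 member probe sets above the limit in both lines included 12 that were higher in both, 2 that were lower in both and 8 with opposite directions, or 54.5%, 9.09% and 36.4%. Over all probe sets these shares were 35.5%, 28.3% and 32.6%. The median log2 fold change of the member probe sets was 0.12 (NCI-H209) and 0.06 (Lu139), against 0.01 and 0.02 for all probe sets above the limit. In Lu139 no member passed 1.5-fold, where 0.16% of all probe sets were that much higher and 1.61% lower.

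**Figure D2:**
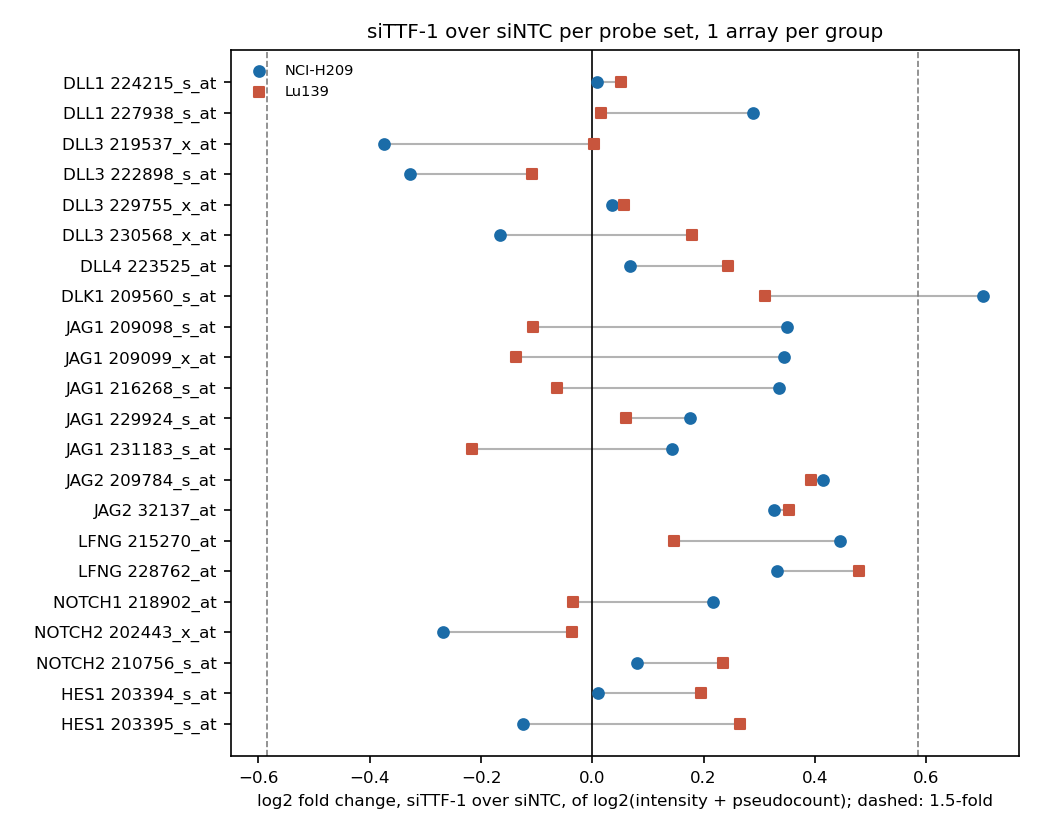
Log2 fold change of siTTF-1 over siNTC in NCI-H209 (blue circles) and Lu139 (red squares) for the 22 member probe sets above the limit in both lines, 1 array per group; grey bars join the lines and dashed lines mark 1.5-fold. The JAG2 pairs lie close together at 0.33 to 0.41, DLK1 reaches 0.70 in NCI-H209, and 4 JAG1 pairs span 0.

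The levels of several of these genes differed between the lines. NOTCH2, LFNG and DLL1 were higher in NCI-H209. JAG1 (4 of 5 tested probe sets) and NOTCH1 (on 218902_at but not on 223508_at) were higher in Lu139. With 2 arrays per line, limma called 16 of the 23 tested member probe sets at an adjusted p under 0.05, 5 higher and 11 lower in Lu139. The background was 68.0% of all probe sets, 19.2% higher and 48.8% lower, so the members' share is close to it. Over the 22 member probe sets above the limit in both lines, 15 were called, 5 higher and 10 lower. The arrays of a line received different siRNAs, and these p-values measure only the spread between 4 arrays, which may be technical.

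NOTCH2 had the largest difference among the members. On 202443_x_at it was 5.45-fold higher in NCI-H209 (log2 difference of Lu139 minus NCI-H209 -2.45, limma 95% interval -2.71 to -2.18, adjusted p = 3.46e-06). On 212377_s_at the log2 difference was -2.50, given with no test, since that probe set is below the limit in Lu139 and passed the filter through its NCI-H209 values. On 210756_s_at the difference was smaller, -0.74, so the probe sets of NOTCH2 disagree on its size. LFNG was 3.87-fold higher in NCI-H209 on 228762_at (-1.95) and 3.68-fold on 215270_at (-1.88). DLL1 was 3.54-fold higher in NCI-H209 on its bright probe set (-1.82, limma adjusted p = 2.28e-06) and 1.48-fold on the dim one. HES1 was 2.19-fold higher in NCI-H209 on 203394_s_at (-1.13) and nearly equal on 203395_s_at (-0.05), where the arrays of the lines overlapped.

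JAG1 was higher in Lu139 by 2.65-fold on 209099_x_at (log2 difference 1.41, limma 95% interval 1.09 to 1.73, adjusted p = 8.76e-05) and by 2.57-fold on 216268_s_at (1.36). Its probe sets 209098_s_at (0.93) and 231183_s_at (0.44) pointed the same way, and 229924_s_at did not (-0.18). NOTCH1 was 1.55-fold higher in Lu139 on 218902_at (0.64, limma adjusted p = 0.00124). Its other probe set, 223508_at, pointed the other way (-0.27), at 36.4 and 39.9 for NCI-H209, and 29.1 and 27.6 for Lu139. It was near or below the limit and was not tested. DLL4 (-0.39, limma adjusted p = 0.0166), DLL3 222898_s_at (-0.30, 0.0476) and JAG2 32137_at (-0.28, 0.0337) were lower in Lu139 on the deposited scale. DLK1 209560_s_at, JAG2 209784_s_at and DLL3 219537_x_at differed by 0.07 to 0.14 there and were not called. With quantile normalization these 3 were at 0.57, 0.53 and 0.54 and were called higher in Lu139 in limma, and with median scaling DLK1 (0.34) and JAG2 209784_s_at (0.29) were, while DLL4 (-0.19), DLL3 222898_s_at (-0.09) and JAG2 32137_at (-0.06) were no longer called.

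These differences include a shift between the lines. The median log2 difference over the 32768 probe sets was -0.25 as deposited, -0.06 with each array scaled to a common median and 0.05 with quantile normalization over the 4 arrays. Relative to the deposited median, NOTCH2 202443_x_at was at -2.20, LFNG 228762_at at -1.71, DLL1 224215_s_at at -1.58 and JAG1 209099_x_at at 1.66. Of the calls over all probe sets, 71.7% were lower in Lu139 as deposited, 56.8% with median scaling and 46.6% with quantile normalization. For the members these shares were 68.8%, 53.3% and 46.7%. Past 2-fold, 6 member probe sets were lower in Lu139 (5 without NOTCH2 212377_s_at) and 2 higher (backgrounds 18.4% and 4.98%). With either other scaling 5 (21.7%) were lower and 3 (13%) higher. The backgrounds were then 13.9% lower and 7.08% higher with median scaling, and 11% and 9.6% with quantile normalization. NOTCH2, LFNG and DLL1 kept their directions with either scaling on all tested probe sets, as did JAG1 on 4 of 5 and NOTCH1 on its 1 tested probe set. The direction of DLL3, DLL4, JAG2 and HES1 flipped with quantile normalization on at least 1 probe set each.

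**Figure D3:**
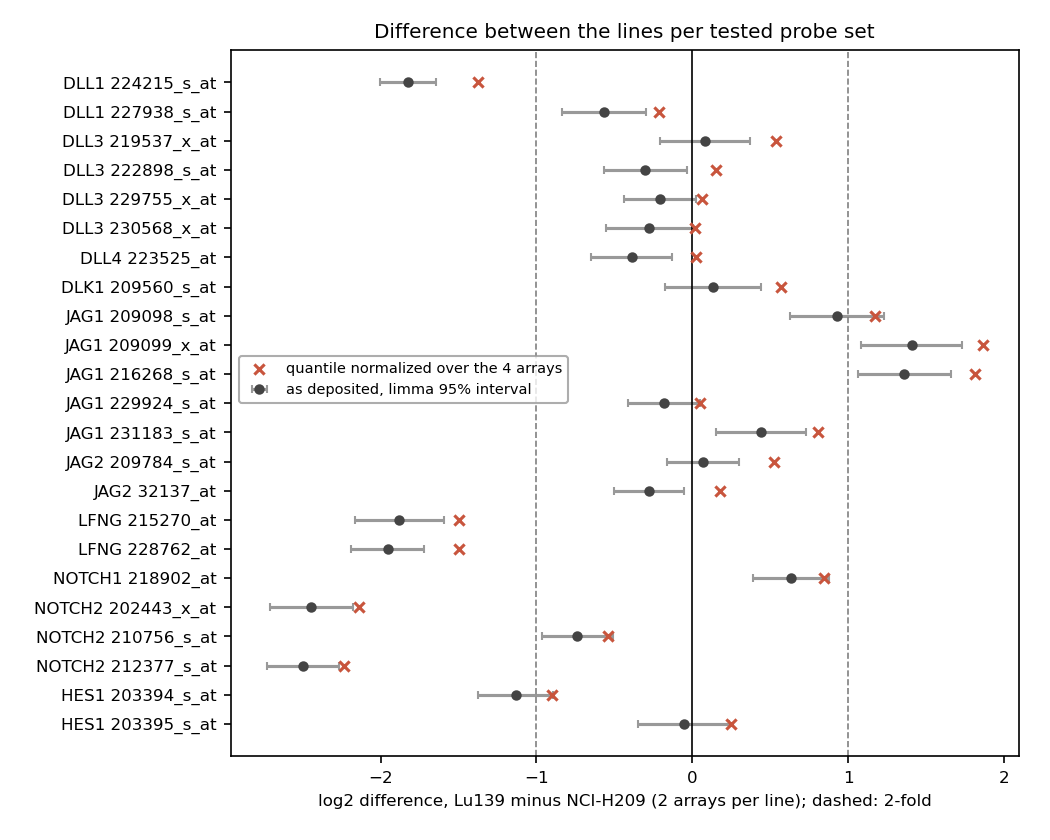
Log2 difference of Lu139 minus NCI-H209 for the 23 tested member probe sets, with 2 arrays per line; dots and bars are the deposited scale with limma 95% intervals, crosses the values after quantile normalization over the 4 arrays, and dashed lines mark 2-fold. NOTCH2, LFNG and the bright DLL1 probe set stay left of 0 and JAG1 209099_x_at and 216268_s_at right of it on both scales. NOTCH2 212377_s_at is below the limit in Lu139 and passed the filter through NCI-H209, so its interval is not read as a test.

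The rest of the pathway was read from a list of 71 genes in 10 roles, each gene from its probe set with the highest mean. Of these, 64 had a probe set and 61 were tested. After siTTF-1, 0 passed an adjusted p under 0.05 in limma (lowest 0.13), as did 0.0% of the 14553 genes tested. At an unadjusted p under 0.05, 2 were higher and 6 lower in limma, where 6.25% and 8.69% of all genes were. In NCI-H209, 6 of the list were at least 1.5-fold lower and 0 higher, against 3.52% and 1.09% of all genes, and in Lu139 0 passed 1.5-fold (backgrounds 0.936% lower and 0.193% higher). At any size, 23 of the 61 were higher and 18 lower in both lines, where 37.3% and 26.9% of all genes were. The median log2 fold change of the 61 was 0.03 (NCI-H209) and 0.00 (Lu139), against 0.01 and 0.03 for all genes.

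The genes past 1.5-fold lower in NCI-H209 were KAT2B, CTBP2, HDAC2, FBXW7, DNER and POGLUT1. KAT2B, an acetyltransferase that acts with the active receptor, read 226 and 144 for NCI-H209, and 143 and 96.5 for Lu139 (log2 fold changes -0.59 and -0.49, limma adjusted p = 0.13). CTBP2, a co-repressor, read 2437 and 1491 for NCI-H209, and 2051 and 1655 for Lu139 (-0.70 and -0.31), and all 5 of its tested probe sets were lower in both lines. HDAC2, a histone deacetylase, had -0.67 and -0.13. FBXW7, the ubiquitin ligase component that marks the active receptor for destruction, had -0.59 and -0.20 on a probe set that read 859 and 566 in NCI-H209. All 4 of these genes were lower in both lines, and the difference between lines was not tested. MAML2, a Mastermind co-activator, had 0.00 and -0.38 and was below the limit in NCI-H209, and NUMBL, related to the Notch inhibitor NUMB, had 0.02 and -0.32.

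Among genes that act at the membrane, DNER, a neuronal Notch ligand, read 541 and 343 for NCI-H209, and 798 and 722 for Lu139 (log2 fold changes -0.63 and -0.14). CNTN1, an adhesion protein that can bind Notch, had -0.39 and -0.05. POGLUT1, which glucosylates the receptor, had -0.59 and -0.03. NEURL1, a ubiquitin ligase acting on ligands, read 194 and 254 for NCI-H209, and 75.8 and 100.2 for Lu139 (0.36 and 0.33), and its relative NEURL1B had 0.05 and 0.24. The other fringe genes were MFNG (0.31 and 0.15, at 44.2 to 63.7) and RFNG (0.08 and 0.05). On its other 2 tested probe sets MFNG had 0.08 and 0.10 for NCI-H209, and -0.20 and -0.09 for Lu139. Of the other receptors, NOTCH3 had 0.13 and 0.08 and NOTCH4 0.07 and -0.06. ADAM17, a receptor-cutting protease, had 0.33 and 0.09, and NCSTN, a gamma-secretase subunit, 0.09 and 0.29.

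The 8 tested genes listed as targets of the active receptor were each read from the brightest probe set. HES6 is there as a family member and is not taken as a Notch target. Of the 8, 2 (HES7 and NRARP) were higher in both lines and 2 (HES6 and HEY1) were lower in both. HES7 was close to the expression limit, at 41.8 and 45.5 for NCI-H209, and 36.0 and 44.8 for Lu139. At an unadjusted p under 0.05 in limma, 0 of the 8 passed. HEY1 read 1046 and 766 for NCI-H209, and 92.6 and 90.0 for Lu139 (log2 fold changes -0.44 and -0.03). On its other probe set, 218839_at, HEY1 was higher in Lu139 after siTTF-1. That probe set read 646 and 478 for NCI-H209, and 78.2 and 88.3 for Lu139 (-0.42 and 0.14). HEY2 read 174 and 112 for NCI-H209, and 23.7 and 25.6 for Lu139, below the limit there. Both HEY genes were thus lower after siTTF-1 in NCI-H209 on the arrays where they are well above the limit, with no replicate. REST, a repressor of neuronal genes that Notch can induce in these tumours, had 0.08 and 0.22 on 204535_s_at. On its other tested probe set, 204536_s_at, REST had 0.09 and -0.09. INSM1 had -0.31 and 0.00 on 206502_s_at, and 0.00 and -0.01 on 231558_at.

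Between the lines, 5 of the 8 listed genes were lower in Lu139 and 0 higher at a limma adjusted p under 0.05. The 5 include HES6, which is not taken as a Notch target, and HEY2, which passed the filter only through NCI-H209. At the same threshold, 7402 of all 14553 genes tested were lower in Lu139 and 2644 higher, so being lower there is common. HEY1 had a log2 difference of -3.05, HEY2 of -1.87 and NRARP, an inhibitor that Notch induces, of -1.01. With median scaling these were -2.85, -1.71 and -0.80, and with quantile normalization -2.69, -1.66 and -0.56. Over the 61 pathway genes, 12 were at least 2-fold lower in Lu139 and 8 higher in limma, 19.7% and 13.1%, against 20.2% and 5.39% of all genes. HEY2 is among the 12. MYC, CREBBP and MAML2 are among the 8, were below the limit in NCI-H209 and passed the filter only through Lu139.

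**Figure D4:**
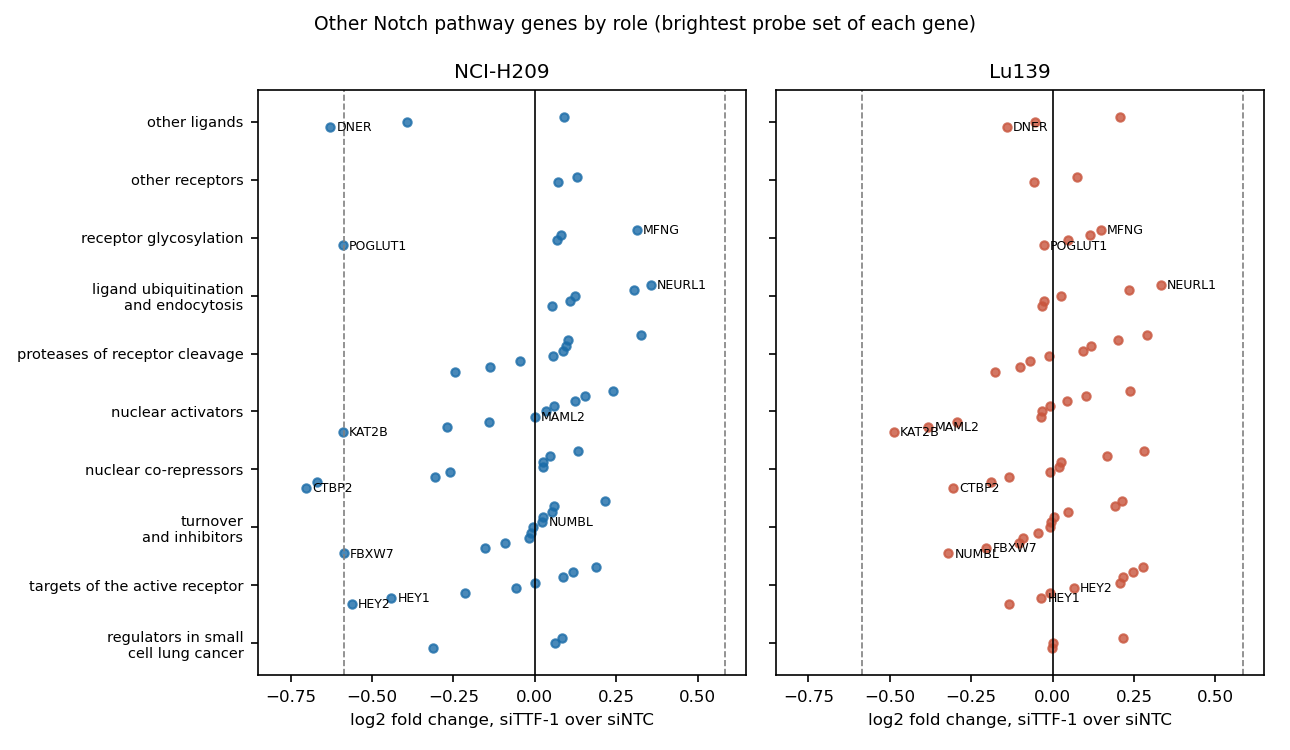
Log2 fold change of siTTF-1 over siNTC for the 61 tested genes of the rest of the pathway, by role, in NCI-H209 (left) and Lu139 (right); each point is 1 gene read from its brightest probe set, 1 array per group, and dashed lines mark 1.5-fold. In NCI-H209, 6 genes lie at or beyond the lower dashed line and none beyond the upper, and in Lu139 none passes either.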

How the data were processed

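The deposited values are linear-scale intensities of probe sets, from 3.03 to 26148. Per the submitters' processing notes they were made with Affymetrix Expression Console, and no version, summarisation or normalization is stated. Exactly equal intensities occurred on 2416 probe sets between the NCI-H209 arrays and 2206 between the Lu139 arrays, against 0 between lines and 0 for the members. Of 54675 probe sets, 62 controls were left out. Probe sets with 1 symbol (41097) were named through the platform annotation, updated by gene identifier through RefSeq (GRCh38.p14).

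Expression was log2(intensity + 18.7), the 25th percentile of all values. Probe sets were tested where their mean exceeded the 40th percentile (5.80). Within a line, differences have no test and were called at 1.5-fold among probe sets whose mean in that line passed. limma 3.58.1 (R 4.3.3) fitted line and siRNA with a variance trend over 32768 probe sets, with 1 residual and 5.96 prior degrees of freedom and Benjamini-Hochberg adjustment. Tests were two-sided. The siRNA effect of the fit was tested on simulated data, where limma made more false calls than its nominal rate. Calls at an adjusted p under 0.05 are therefore less certain than that threshold states. The number of arrays limits the precision.

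Named pathway genes were, in each role, the 2 with the largest mean change, any past 1.5-fold, and REST and the other receptors and fringe genes. Of the list, 7 genes had no probe set paired with 1 symbol and are not analysed here. The members and lists were chosen with earlier results of these data known. Alternatives were the pseudocount, the expression limit, the scaling, the variance trend, the line term, the fold threshold and the choice of probe set. Tables and plots used Python 3.11.15 and matplotlib 3.10.9.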

Additional observations from a re-analysis of the deposited data

Results flagged for a closer look

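5 member probe sets changed by at least 0.1 on the log2 scale in opposite directions in the lines, with 1 array per group, and the difference was not tested. JAG1 did so on 3 probe sets: 209098_s_at had 0.35 (NCI-H209) and -0.11 (Lu139), 209099_x_at had 0.34 and -0.14, and 231183_s_at had 0.14 and -0.22. DLL3 230568_x_at had -0.17 (NCI-H209) and 0.18 (Lu139), and HES1 203395_s_at had -0.13 and 0.27. Over all probe sets above the limit in both lines, 32.6% had opposite directions at any size, and 8 of 22 member probe sets (36.4%) did. The share of all probe sets at the 0.1 cut-off was not computed, so the count of 5 has no background here.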

How the results depend on the processing

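The count of members past 1.5-fold in NCI-H209 was 1, under all 3 scalings, both other pseudocounts and both other expression limits, and 0 at a 2-fold threshold. In Lu139 it was 0 under all of these. The siTTF-1 effect across lines gave 0 members and 0 other pathway genes past the limma adjusted p threshold of 0.05 under every alternative run. The lowest member adjusted p ranged from 0.106 with quantile normalization over the 4 arrays, where limma called 67 of all probe sets, to 1.0 with no line term. At an unadjusted p under 0.05 limma gave 5 member probe sets, all higher, of JAG2, LFNG and DLK1 (background 5.88% higher and 9.29% lower). The count of member probe sets that differ between the lines was 16 of 23, where 68.0% of all probe sets did. It was 12 with the expression limit at the 60th percentile, where 21845 of all probe sets were tested. With no expression limit, where 54613 were tested, it was 18. These 2 counts are therefore not out of 23, and the shares of all probe sets called there are not given. It was 15 or 16 under the other alternatives read by probe set. With each gene read from its brightest probe set, 7 of the 10 member genes differed. Read this way in the main fit, 7402 of all 14553 genes were lower in Lu139 and 2644 higher. With quantile normalization over the 4 arrays the difference of Lu139 minus NCI-H209 reversed for HES1 203395_s_at (0.25), DLL3 222898_s_at (0.15), DLL3 229755_x_at (0.0653), DLL3 230568_x_at (0.0212), DLL4 (0.0248), JAG1 229924_s_at (0.0507) and JAG2 32137_at (0.18). With median scaling it reversed for HES1 203395_s_at (0.13), and the mean siTTF-1 change reversed for DLL1 224215_s_at (-0.0036) and DLL3 230568_x_at (-0.0189). A scaling alters every probe set of an array, and the cause in single probe sets was not tested. The line is the block of the fit, and the labels number no replicates. Leaving out a line leaves no residual degree of freedom and gives the values of the other line shown above.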

Other observations

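Some other pathway genes differed widely between the lines, and they are named here after their values were seen. MYC, a growth-promoting transcription factor that Notch can induce in other tumours, read 10.6 and 11.9 for NCI-H209, and 10029.7 and 10039 for Lu139. CREBBP, an acetyltransferase that acts with the active receptor, read 8.43 and 9.09 for NCI-H209, and 713 and 696 for Lu139 on 202160_at, and 44.4 and 39.7 against 245 and 217 on 228177_at. Its probe set 211808_s_at did not show this, at 42.5 and 46.1 for NCI-H209, and 43.8 and 45.4 for Lu139. NEURL1B, a ubiquitin ligase acting on Notch ligands, went the other way, with 3434 and 3564 for NCI-H209, and 596 and 705 for Lu139. siTTF-1 changed MYC by 0.06 and 0.00 and CREBBP 202160_at by 0.03 and -0.03 on the log2 scale.

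The probe set 227067_x_at, paired with NOTCH2 and its near-identical NOTCH2NL copies and therefore not counted as a member, read 109 and 121 for NCI-H209, and 43.0 and 46.9 for Lu139. Its log2 difference of Lu139 minus NCI-H209 was -1.07, between those of the NOTCH2 probe sets.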
